A study of Homo sapiens with 2 samples.

Results

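The 10 genes described here encode enzymes that make serine, asparagine and proline or that pass the carbon of serine to folate: PHGDH, PSAT1, PSPH, SHMT1, SHMT2, MTHFD2, MTHFD1L, ASNS, PYCR1 and ALDH18A1. They were selected by name from the 60623 named genes of a deposited count table, and each was found once. All 10 passed the filter on low values. RNA-seq compared 1 library of HCT116 cells that received a non-specific siRNA, called siControl, with 1 library of HCT116 cells that received KAT7 siRNA, called siKAT7; Lipofectamine 2000 carried both siRNAs. HCT116 is an epithelial line from a human colon carcinoma, labelled wild type in both groups, and no time after transfection is given in the labels. KAT7, also called HBO1, is a histone acetyltransferase, and the comparison asked how lowering it changes transcription.

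Cells build serine from the glycolytic intermediate 3-phosphoglycerate through PHGDH, PSAT1 and PSPH. SHMT enzymes then split serine into glycine and a carbon unit that folate carries through MTHFD2 and MTHFD1L in mitochondria for purine and thymidylate synthesis. ASNS makes asparagine from aspartate and glutamine, and ALDH18A1 and PYCR1 make proline from glutamate. Many of these genes are known targets of ATF4, the transcription factor of the integrated stress response, which is translated when the initiation factor eIF2-alpha is phosphorylated.

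With 1 library per group no difference has a replicate check and no p-value is given. The named genes summed to 23450326 counts in siControl and 23533134 in siKAT7. Levels are given as CPM, each gene's count relative to its library total after that total was scaled with edgeR's TMM factor, and ratios as log2 of siKAT7 over siControl. Each ratio has a 95% interval from the exact Clopper-Pearson method, which covers counting error alone: reads copied by PCR and counted without molecular identifiers do not stand for separate molecules, and the spread between cultures is not in it. A gene was called higher or lower at a fold of at least 1.5 with an interval that excluded 0, over the 13217 genes whose mean reached 1 CPM. KAT7 had 442.94 counts in siControl and 287.22 in siKAT7, which was 69.6% of the siControl level (59.7% to 80.8%). This log2 ratio of -0.52 did not reach the 1.5-fold rule and lies inside the central 95% of all genes (-0.74 to 0.78), so with 1 library per group KAT7 RNA is a weak check of the labels. Of 9 markers of colon carcinoma epithelium, 6 passed the filter on low values and none of them was called. CDX1 was at 0, and LGALS4 and VIL1 had too few counts to pass. The 6 fibroblast markers summed to 31.8 and 31.7 CPM, nearly all from COL1A1, while DCN had 1 count in each library and LUM 0. The 6 blood markers summed to 1.19 and 2.51 CPM, with PTPRC and HBB at 0, and the 4 endothelial markers to 0.822 and 0.97 CPM, with PECAM1, CDH5 and KDR at 0. In bulk RNA, fewer cells with a transcript and less of it per cell cannot be told apart.

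None of the 10 enzymes was called higher or lower in siKAT7. The background was 3.92% of all 13217 genes called higher and 3.91% called lower, or 7.83% in either direction. Among the 7834 genes that reached a mean of 10 CPM, where all 10 enzymes lie, 1.39% were higher and 0.766% lower. At shares this low, 0 of 10 does not set the enzymes apart from other genes. The folds ran from 0.855 for ALDH18A1 to 1.21 for PSAT1. All 10 log2 ratios lay within 0.5 of 0, as did 87.3% of all genes, and 5 of the 10 lay above 0, against 49.3% of all genes. The median log2 ratio of the 10 was 0.03, against -0.0048 over all measured genes. Of the 10 intervals, 4 lay above 0, 4 lay below 0 and 2 spanned it. Over all genes 23.0% of intervals lay above 0 and 22.0% below, and among genes that reached 10 CPM 30.0% and 26.7%. Against the median of all genes the enzymes divided in the same numbers, with 23.4% of all genes above it and 21.5% below. Together the 10 enzymes held 0.168% of the named counts in siControl and 0.170% in siKAT7.

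Scaling sets where 0 lies. Total-count scaling moved every ratio by -0.11, the shift between both sets of library sizes, and under it 9 of the 10 enzymes kept their sign. ASNS was the exception, at -0.01 in place of 0.09. Relative to the median of all genes the enzymes ran from -0.22 for ALDH18A1 to 0.28 for PSAT1.

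**Figure D1:**
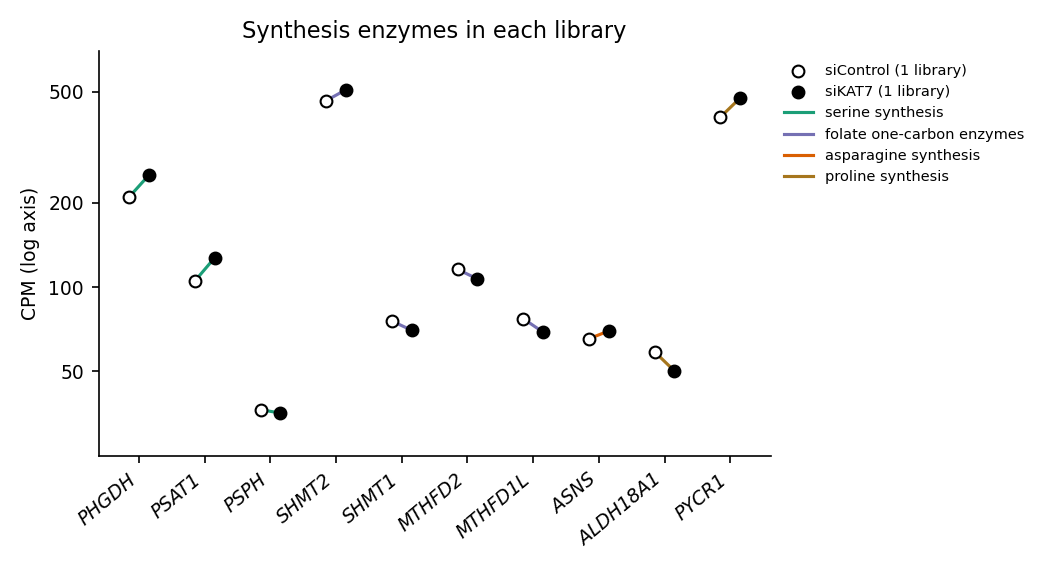
CPM of the 10 enzymes (log axis) in the siControl library (open circles) and the siKAT7 library (filled circles), joined by a line coloured by pathway branch; each circle is 1 library, so there are no error bars. SHMT2 and PYCR1 are the highest and PSPH the lowest in both libraries, and no line spans a fold of 1.5.

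The serine branch divided after its opening pair of enzymes. PHGDH (ENSG00000092621), which oxidises 3-phosphoglycerate, lies on chromosome 1 (119648411 to 119744226, forward strand, as all positions of genes here in GENCODE 29 on GRCh38). It had 5116 counts (210.2 CPM) in siControl and 5705 counts (252 CPM) in siKAT7, a log2 ratio of 0.26 (0.20 to 0.31). PSAT1 (ENSG00000135069), the aminotransferase that follows it, lies on chromosome 9 (78297143 to 78330093, forward strand) and had 2562 counts (105 CPM) in siControl and 2887 (127 CPM) in siKAT7. Its log2 ratio of 0.27 (0.20 to 0.35) was the highest of the 10, and its interval overlapped that of PHGDH. PSPH (ENSG00000146733), the phosphatase that releases serine, lies on chromosome 7 (56011051 to 56051604, reverse strand). It had 887.78 expected counts (36.5 CPM) in siControl and 804.7 (35.5 CPM) in siKAT7. The log2 ratio of PSPH was -0.04, and its interval of -0.18 to 0.10 spanned 0 and did not overlap those of PHGDH and PSAT1. The counts of PSPH were not whole numbers, because part of its reads also fitted other gene models. The pseudogene PSPHP1 held 10.22 and 9.3 of such counts, too few to move the ratio, which stayed at -0.04 with them added. Summed over the 3 enzymes the branch had a log2 ratio of 0.24 (0.19 to 0.28), most of it carried by PHGDH.

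The mitochondrial SHMT2 and the cytosolic SHMT1, which both convert serine to glycine, had ratios on opposite sides of 0. SHMT2 (ENSG00000182199), on chromosome 12 (57229327 to 57234935, forward strand), had the most counts of the 10, with 11303 (464 CPM) in siControl and 11521 (508 CPM) in siKAT7. Its log2 ratio was 0.13 (0.09 to 0.17), or 0.02 under total-count scaling. SHMT1 (ENSG00000176974), on chromosome 17 (18327860 to 18363563, reverse strand), had 1840.96 expected counts (75.6 CPM) in siControl and 1591.48 (70.2 CPM) in siKAT7. Its log2 ratio was -0.11 (-0.21 to -0.01). SHMT1 shares exon bases with SMCR8 on the opposite strand, and with those counts added the log2 ratio was -0.07. With the strand setting of the counting not given in the sources used here, reads of such a pair cannot be told apart.

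The mitochondrial folate enzymes downstream of SHMT2 did not follow its sign. MTHFD2 (ENSG00000065911), a dehydrogenase and cyclohydrolase on chromosome 2 (74198562 to 74217565, forward strand), had 2818.07 expected counts (116 CPM) in siControl and 2427.51 (107 CPM) in siKAT7, with a log2 ratio of -0.11 (-0.19 to -0.03). MTHFD1L (ENSG00000120254), which releases formate for the cytosol, lies on chromosome 6 (150865549 to 151101887, forward strand) and had 1878 expected counts (77.2 CPM) in siControl and 1565.87 (69.1 CPM) in siKAT7. Its log2 ratio was -0.16 (-0.26 to -0.06). Both intervals lay below 0 and both lay below that of SHMT2. Because SHMT2 held most of the counts, the sum over the 4 folate enzymes had a log2 ratio of 0.04 (0.01 to 0.07), while the median of the 4 was -0.11. Under total-count scaling the sum turned to -0.07.

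ASNS (ENSG00000070669), the only human asparagine synthetase, was nearly level. It lies on chromosome 7 (97852118 to 97872542, reverse strand) and had 1592.33 expected counts (65.4 CPM) in siControl and 1581.87 (69.8 CPM) in siKAT7. Its log2 ratio was 0.09, and the interval of -0.01 to 0.19 included 0. The readthrough model AC079781.5 shares ASNS exons on the same strand and held 286.11 and 278.99 expected counts. With that model added the ratio remained 0.09.

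The proline branch held the lowest ratio and the third highest. ALDH18A1 (ENSG00000059573), which makes the pyrroline-5-carboxylate precursor from glutamate, lies on chromosome 10 (95605929 to 95656706, reverse strand). It had 1429 counts (58.7 CPM) in siControl and 1138 (50.2 CPM) in siKAT7, with a log2 ratio of -0.23 (-0.34 to -0.11). PYCR1 (ENSG00000183010), the mitochondrial reductase that completes proline, lies on chromosome 17 (81932384 to 81942412, reverse strand). It had 9865.24 expected counts (405 CPM) in siControl and 10759.4 (474 CPM) in siKAT7, with a log2 ratio of 0.23 (0.19 to 0.27). Antisense model AC145207.4, which overlaps its exons, held 102.76 and 75.59 expected counts, and with these added the log2 ratio was 0.22. The sum of both enzymes had a log2 ratio of 0.18 (0.14 to 0.21): PYCR1 was higher in siKAT7 by more CPM than the sum was, and ALDH18A1 was lower.

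In order of ratio the enzymes ran PSAT1, PHGDH, PYCR1, SHMT2, ASNS, PSPH, SHMT1, MTHFD2, MTHFD1L and ALDH18A1. Of the 9 neighbouring pairs in that order, only PYCR1 and SHMT2 had intervals that did not overlap. PSAT1, PHGDH and PYCR1 thus could not be ordered among themselves by counting error, nor could SHMT1, MTHFD2, MTHFD1L and ALDH18A1.

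Count ratios between enzymes within a library do not depend on scaling. For 7 pairs that are neighbours or isozymes in the pathway, chosen with the values known, the ratio in siKAT7 was divided by that in siControl. PYCR1 had 6.9 times the counts of ALDH18A1 in siControl and 9.45 times in siKAT7, a change of 1.37-fold (exact 95% interval 1.26 to 1.49). This was the largest change of the 7. PSAT1 had 2.89 and 3.59 times the counts of PSPH, a change of 1.24-fold (1.11 to 1.39). The change was 1.18-fold for SHMT2 over SHMT1 (1.1 to 1.27) and 1.18-fold for SHMT2 over MTHFD2 (1.11 to 1.26). The PHGDH to PSAT1 ratio was 2.0 and 1.98, a change of 0.99-fold (0.927 to 1.06). The MTHFD2 to MTHFD1L ratio changed by 1.03-fold (0.947 to 1.13). The PSPH to SHMT2 ratio changed by 0.889-fold (0.805 to 0.983). The interval included no change for PHGDH over PSAT1 and for MTHFD2 over MTHFD1L. No background over other gene pairs was computed, so nothing particular to the pathway is read from these intervals.

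**Figure D2:**
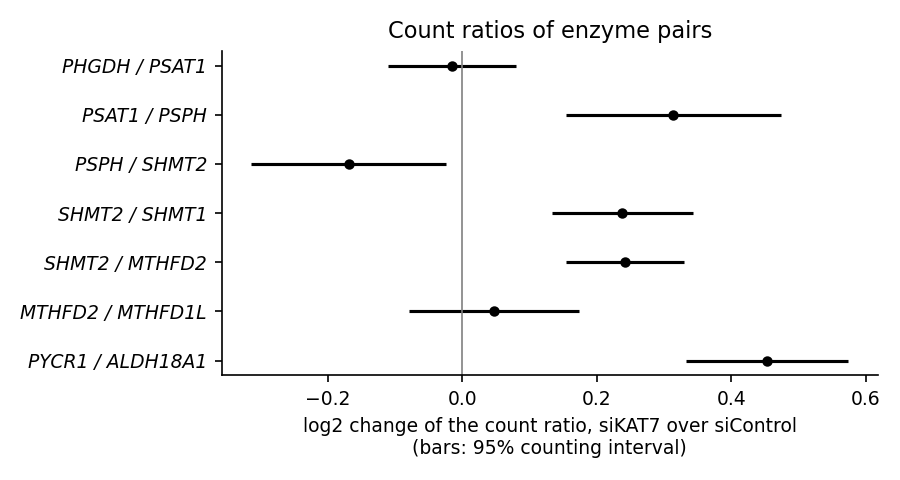
Change of the count ratio of 7 enzyme pairs between the libraries (log2 scale; points are siKAT7 over siControl, bars the exact 95% counting interval). PYCR1 over ALDH18A1 lies farthest from 0, and PHGDH over PSAT1 and MTHFD2 over MTHFD1L have intervals that include 0.

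Over all genes the median log2 ratio fell with transcript length and had no steady trend with level. In 5 equal groups by the longest annotated transcript, it was 0.13 for the shortest genes (64 to 1975 bases) and -0.06 for the longest. In 5 groups by mean CPM it was -0.0048 in the lowest, -0.04 in the middle one and 0.06 in the highest. That highest group holds 8 of the 10 enzymes. PYCR1 has the shortest longest transcript of the 10 enzymes, at 1904 bases, and MTHFD2 the longest, at 4456 bases. Against the median of genes within 2-fold of its level and 1.5-fold of its length, a setting added after the values were seen, each of the 10 enzymes kept its sign. PSAT1 and PHGDH were 0.21 above that median, PYCR1 0.12, SHMT2 0.09 and ASNS 0.05. PSPH lay at -0.06, MTHFD2 at -0.09, SHMT1 at -0.13, MTHFD1L at -0.14 and ALDH18A1 at -0.21. Every enzyme also lay inside the central 95% of the ratios of genes within 2-fold of its level. That range was -0.37 to 0.45 for PSAT1 and -0.42 to 0.45 for ALDH18A1. The part of transcript length or level in the ratios was not tested.

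**Figure D3:**
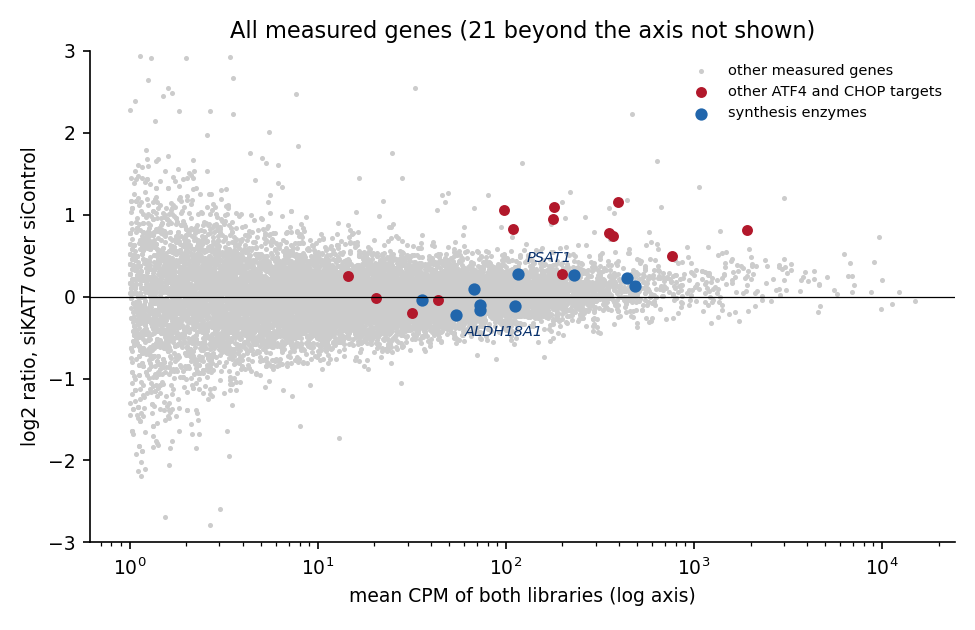
Log2 ratio against mean CPM (log axis) for the measured genes, with the 10 enzymes in blue and other ATF4 and CHOP targets in red; each point is 1 gene, and 21 genes beyond 3 on the log2 axis are not shown. The enzymes lie within the band of genes of like level, and 8 of the 14 red points were called higher, against 3.92% of all measured genes.

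Levels of different genes were compared in siControl only, as counts per base of the longest transcript scaled to a fixed sum over measured genes. On this scale PYCR1 was at 403 and SHMT2 at 257, followed by PHGDH at 125 and PSAT1 at 91.0. ASNS, SHMT1 and MTHFD2 were close, at 52.6, 51.9 and 49.2, and MTHFD1L (40.5), ALDH18A1 (33.1) and PSPH (31.7) were lowest. Below PYCR1 and SHMT2 the order rests on the gene model: with merged exons as the length PHGDH was at 56.2, below PSAT1 at 119 and MTHFD2 at 58.6, and SHMT1 was lowest at 25.6.

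Of 11 measured regulators of these genes, 4 were called higher in siKAT7, 0 lower and 7 not, with a median log2 ratio of 0.16. Over all measured genes 3.92% were called higher and 3.91% lower, the background for this list and for each list below. ATF4 had 17810 counts in siControl and 25300 in siKAT7, a log2 ratio of 0.61 (0.58 to 0.64) or 1.52-fold. Its partner CEBPB was 1.72-fold higher, from 5253.83 to 8432.5 expected counts. DDIT3, which encodes CHOP, was 2.04-fold higher, from 6040.71 to 11460.0. EIF2AK3, which encodes the eIF2-alpha kinase PERK of the endoplasmic reticulum, was 1.59-fold higher, on 127 and 187.77 expected counts. Under total-count scaling ATF4 was 1.42-fold and EIF2AK3 1.47-fold higher, below the limit. ATF5 and CEBPG, further factors of the response, had log2 ratios of 0.30 (0.04 to 0.57) and 0.16 (0.01 to 0.32).

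Targets of ATF4 and CHOP outside amino acid synthesis were mostly called higher. Of 14 measured, 8 were called higher and 0 lower, and the median log2 ratio was 0.76. Over all measured genes 3.92% were called higher and 3.91% lower. Among genes that reached 10 CPM, where all 14 lie, the shares were 1.39% and 0.766%. PPP1R15A, which directs dephosphorylation of eIF2-alpha, had a log2 ratio of 1.16 (1.11 to 1.20), from 5954 to 12357 counts. TRIB3, a pseudokinase, went from 2815 to 5580 counts (1.09, 1.02 to 1.16). CHAC1, which degrades glutathione, went from 1533 to 2983 (1.06, 0.97 to 1.15). SESN2, an inhibitor of mTORC1 signalling, went from 2944 to 5292 (0.95, 0.88 to 1.01). DDIT4, another such inhibitor and the most abundant per length, had a log2 ratio of 0.82. The 6 measured targets that were not called ran from -0.20 for CCNG2 to 0.50 for GDF15, both named after their values were seen. Of these 6, 5 had log2 ratios below 0.35, the highest interval end of the 10 enzymes. These genes were listed with earlier results of the same libraries known, so their direction is no independent evidence.

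**Figure D4:**
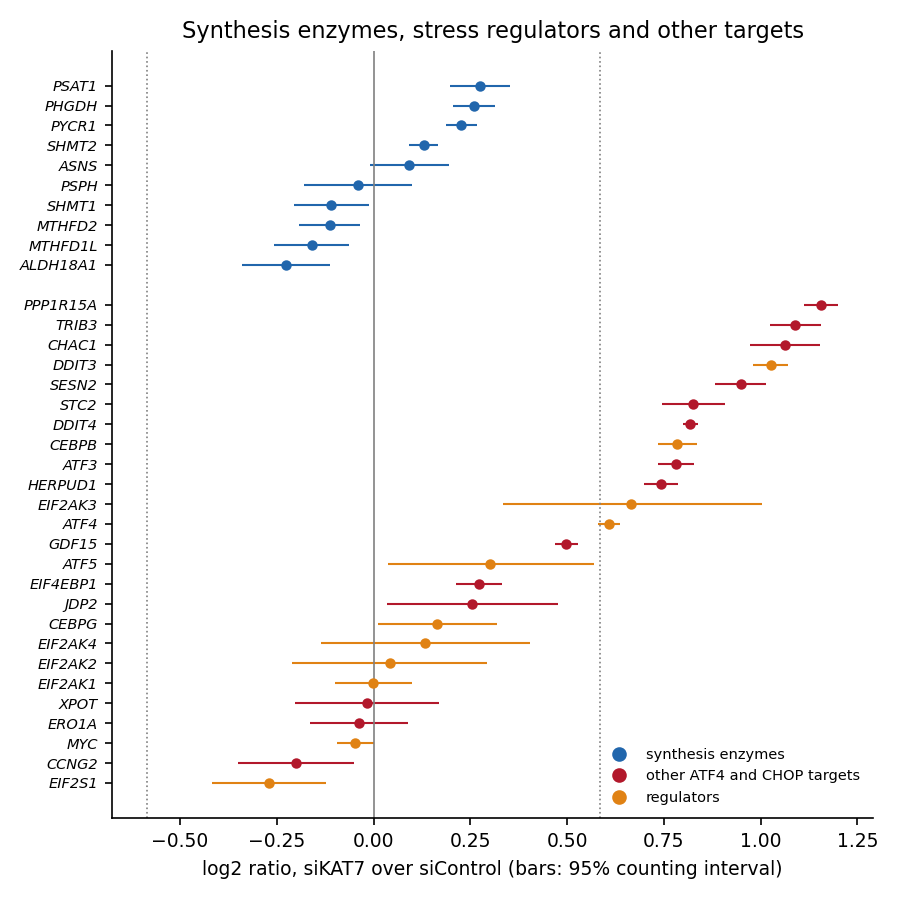
Log2 ratio of the 10 enzymes (blue, top), other ATF4 and CHOP targets (red) and regulators (orange), with 95% counting intervals as bars; dotted lines mark a fold of 1.5 in each direction. All 10 enzymes lie between the dotted lines, and 12 of the other genes lie beyond the right one.

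Promoter windows of RefSeq (GRCh38.p14) cover 250 bases before to 50 after a transcript start and were searched on both strands for the core TGATGNAA of the composite C/EBP-ATF element, which ATF4 binds together with a C/EBP factor. Of the 10 enzymes, 7 were in the table and PSPH, PYCR1 and SHMT2 were not. The core was present in windows of 2 of the 7, ASNS and MTHFD1L. Of all 35116 windows 3.62% held it, and of all 27305 symbols 4.46%. Stretches of 30 bases around the core are shown for both enzymes and, as a called target, for CHAC1, written 5′ to 3′ on the strand of the gene with the core in capitals. In CHAC1 the core is on the opposite strand, so the capitals show its reverse complement.
ASNS, chr7:97872458-97872487, reverse strand: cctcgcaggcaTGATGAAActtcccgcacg
MTHFD1L, chr6:150866346-150866375, forward strand: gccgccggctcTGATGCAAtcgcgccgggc
CHAC1, chr15:40953251-40953280, forward strand: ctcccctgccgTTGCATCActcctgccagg

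The core of ASNS was found in 1 of its 2 windows, where it begins 68 bases before the transcript start. In MTHFD1L it begins 129 or 90 bases before a start, and within the transcript from a further start. In CHAC1 it lies 209 bases before the start. The printed cores share the pattern but not every letter. Among the other ATF4 and CHOP targets 4 of 14 symbols in the table held the core. Their log2 ratios were 1.06 for CHAC1, 0.78 for ATF3, 0.74 for HERPUD1 and 0.25 for JDP2, of which JDP2 was not called. Of the called targets named above, PPP1R15A, TRIB3, SESN2 and DDIT4 had no core in a window, with log2 ratios of 1.16, 1.09, 0.95 and 0.82. The enzymes with the core had 0.09 (ASNS) and -0.16 (MTHFD1L). Among the carriers 4 of 12 held it. A match describes letters in the window and is not a measured site, and a window without one says nothing of the factor.

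Other genes of folate metabolism were mostly below 0. Of 13 measured, 10 had log2 ratios below 0 and 3 above, 7 had intervals below 0 and 1 above, and 0 were called. Their median was -0.21. MTHFD1, the cytosolic counterpart of the mitochondrial folate enzymes, had 1119.65 and 849.28 expected counts and a log2 ratio of -0.30 (-0.43 to -0.17). MTHFD2L, the isozyme of MTHFD2, had 189.02 and 129.88 and a log2 ratio of -0.44 (-0.77 to -0.11). TYMS, which makes thymidylate with a folate carbon and was the most abundant per length, had 3693.97 and 2686.34 and -0.36 (-0.43 to -0.29). ALDH1L2, the mitochondrial formyl-folate dehydrogenase, had 8 and 5 counts and did not pass the filter. SHMT2 was thus above 0 while MTHFD2, MTHFD1L, MTHFD1, MTHFD2L and TYMS had intervals below it.

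The glycine cleavage system, which breaks down the glycine that SHMT2 makes, had a median of -0.25 over 4 genes. Over DLD and GCSH, the only ones that reached 10 CPM, it was -0.51. DLD, its shared dihydrolipoamide dehydrogenase, was the gene called lower, from 343 to 195 counts (log2 ratio -0.71, -0.97 to -0.45). GCSH, the carrier protein and the most abundant per length, had -0.30 (-0.39 to -0.22), and the decarboxylase GLDC had 0.18 (-0.16 to 0.52) on 146.21 and 154.29 expected counts.

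Other proline and ornithine enzymes had a median of -0.13 over 7 measured genes, with 1 called lower. That gene was PYCR3, the cytosolic isozyme of PYCR1, from 331 to 205 counts (log2 ratio -0.59, -0.85 to -0.33). With a prior count of 5 its fold was 1.49 lower and it was not called. Its interval lay below 0 while that of PYCR1 lay above it. OAT, which links ornithine to the same precursor, had -0.27 (-0.41 to -0.13). PRODH and ALDH4A1, which break proline down, had -0.49 (-1.04 to 0.05) on 73.93 and 49.38 expected counts and -0.13 (-0.27 to 0.01).

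Among 8 measured enzymes of asparagine, aspartate and glutamine, 0 were called higher and 1 lower, with a median of -0.09, and 3 intervals lay above 0 and 3 below. GLUD1, glutamate dehydrogenase, had -0.45 (-0.55 to -0.34) and GOT2, the mitochondrial isozyme of GOT1, had -0.19 (-0.27 to -0.12), both named after their values were seen. ASRGL1, an asparaginase, had a log2 ratio of 0.20 (0.04 to 0.37). GOT1, the cytosolic aspartate aminotransferase, had 0.21 (0.15 to 0.27). The gene called lower was AGA, a lysosomal enzyme that cleaves asparagine from sugars, named after its values were seen, on 48 and 21 counts. Of 9 measured genes that use serine, 0 were called, the median was 0.03, 1 interval lay above 0 and 1 below, and the seryl-tRNA synthetase SARS1 (SARS in the table) had 0.20 (0.13 to 0.27). Of 6 glycolytic genes around 3-phosphoglycerate, the substrate of PHGDH, 0 were called, the median was -0.07, and 2 intervals lay above 0 and 3 below. GAPDH, the most abundant per length, had 0.20 (0.19 to 0.21), and PGK1, which makes 3-phosphoglycerate and is named after its values were seen, had -0.27 (-0.30 to -0.24).

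Amino acid carriers had a median of 0.20 over 12 measured genes, with 1 called higher and 0 lower. Among carriers that reached 10 CPM the median was 0.034. SLC1A4, a carrier of serine and other small neutral amino acids, went from 122 to 183 counts (log2 ratio 0.68, 0.35 to 1.03). It was 1.49-fold higher under total-count scaling, just below the limit. SLC3A2, the heavy chain of several carriers and the most abundant per length, had 10866 and 13639 counts and a log2 ratio of 0.43 (0.39 to 0.47), above the interval of every synthesis enzyme.

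**Figure D5:**
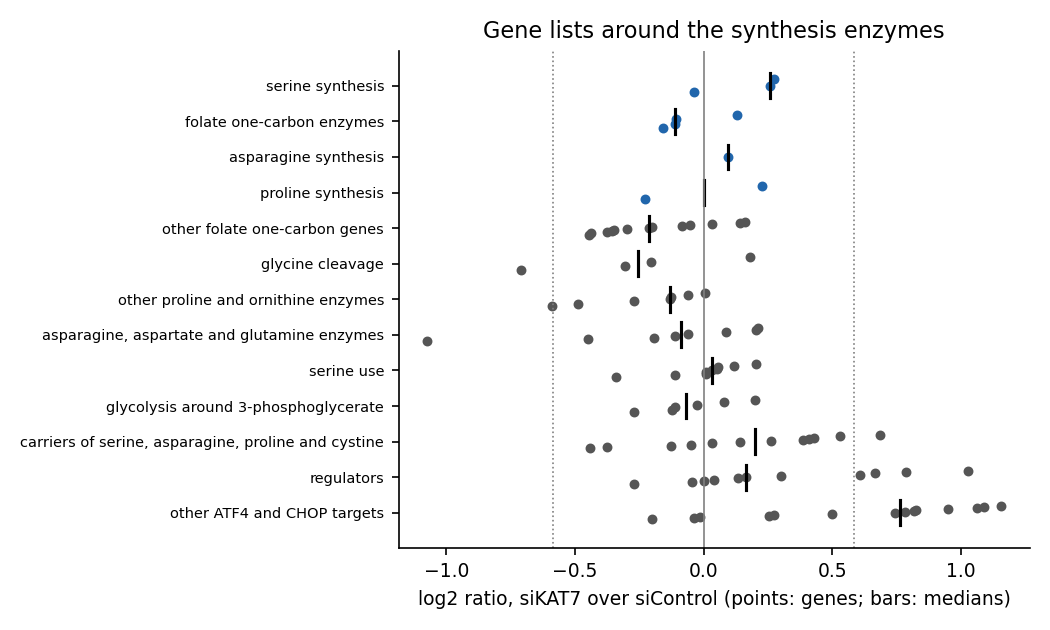
Log2 ratios of the measured genes in the 4 enzyme branches (blue) and in 9 lists of related genes (grey), 1 point per gene, with black bars at the medians and dotted lines at a fold of 1.5. The median of other ATF4 and CHOP targets, 0.76, lies to the right of all others, and that of glycine cleavage, -0.25, is the lowest.

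In the authors' deposited table none of the 10 enzymes was marked significant, out of 310 genes marked. The log2 folds of the authors' deposited table, siKAT7 over siControl, ran from -0.33 for ALDH18A1 to 0.17 for PSAT1. Rounded to 2 decimals they equal the ratios under total-count scaling, so ASNS is at -0.01 and SHMT2 at 0.02. Adjusted p-values in the authors' deposited table ran from 3.88e-08 for PYCR1 to 1 for ASNS; they compare these libraries and not the conditions, and the rule behind the authors' mark is not known here.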

How the data were processed

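RNA-seq of 2 HCT116 libraries, 1 per group, was compared. The deposited table holds expected counts per gene, made by the authors with RSEM 1.3.3 on GRCh38.p13 per the submitters' processing notes. Aligner, annotation release and strand setting: not given in the sources used here. The table repeats both count columns with 0 differing cells, and each library was used once. Unnamed rows (331) hold 1.11% of counts in siControl and 1.67% in siKAT7 and were left out. The authors' deposited table gives a fold as a ratio, its log2, and a p-value with an adjusted p-value, which compare 2 libraries and called no gene here. The authors' test tool: not given in the sources used here. The deposited gene length, an other column of that count table per the file headers, served as an alternative length.

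Expected counts were rounded and scaled with TMM factors (1.04 for siControl and 0.964 for siKAT7) of edgeR 4.0.16 in R 4.3.3. Log2 ratios used a prior count of 0.5. Exact intervals came from scipy 1.17.1. Transcript lengths and coordinates came from GENCODE 29, which holds 58516 of the 60623 named identifiers. The procedure was tested on simulated data with counting error alone, so that test does not cover PCR copies or the spread between cultures. The members and lists were chosen with earlier results of these data known. All 132 list symbols matched. Named genes were the 10 enzymes, KAT7, their isozymes and reverse steps, 5 stress factors, and of each list up to 4 called members with at least 100 summed counts and the most abundant member; AGA, GLUD1, GOT2, PGK1, CCNG2, GDF15, ATF3, HERPUD1 and JDP2 fall outside this rule and were chosen after their values were seen. Of the genes under this rule, 1 is not reported here. Alternatives were total-count scaling, a prior count of 5, size factors of DESeq2 1.42.0, no filter or a stricter one, other fold limits, the authors' folds, summed overlapping models and other lengths.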

Additional observations from a re-analysis of the deposited data

How the results depend on the processing

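No paired analysis was possible because each group has 1 library, and leaving out a library leaves no comparison. The count of synthesis enzymes called, 0 higher and 0 lower, was the same under all 7 alternatives to which it applies, but most of these could not change it. With none called at 1.5-fold, none can be called at 2-fold. The lowest mean of the 10 was 35.99 CPM (PSPH), so no filter and the filter at 10 CPM left the set as it was. A prior count of 5 hardly moved the ratios of the 10. The count could have differed under a lower fold limit, total-count scaling or DESeq2 size factors, and did not. With the lower limit 1341 of all genes were higher and 1436 lower, and with 2-fold 179 and 144, against 518 and 517 at 1.5-fold. Without an expression filter the numbers were 1008 and 985, with a mean of at least 10 CPM 109 and 60, and under total-count scaling 355 and 843. Total-count scaling lowered the median of the 10 enzymes from 0.03 to -0.080, that of other ATF4 and CHOP targets from 0.76 to 0.65, and the summed log2 ratios to 0.13 (serine), -0.066 (folate), -0.014 (asparagine), 0.070 (proline) and 0.020 (all 10); this is the shift of -0.11 in the scaling itself. Of the 84 measured genes in the context lists, 13 were higher and 3 lower, against 3.92% and 3.91% of all measured genes. At the lower limit 17 were higher and 11 lower, and at 2-fold 4 were higher and 1 lower. DESeq2 size factors and a prior count of 5 kept all 10 signs, as did the comparison with genes of like level and length, which was added after seeing the data along with the deposited gene length. Counts of 887.78 to 11303 per enzyme in siControl limit the precision of each ratio, and the spread between cultures is unknown.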
